A study of Mus musculus with 15 samples.

Results

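Glycine tRNA fragments are the fragments (tRFs) assigned to the glycine tRNAs, and they are represented by 4 of the 47 tRFs measured in mouse sperm: GlyGCC, GlyCCC, GlyTCC and GlyACC, each named by its amino acid and anticodon. They were chosen by name alone, as every glycine entry of the table, and are described in all 15 libraries. The study asked whether an obesity-inducing diet of fathers alters the small RNA of their sperm and of the sperm of their sons. All males were C57BL/6 mice by their labels, C57BL/6NTac by the methods of the study. CO F0 males (n = 3) were fed a control diet and OID F0 males (n = 4) an obesity-inducing diet for 7 weeks. CO F1 males (n = 4) and OID F1 males (n = 4) were sons of CO and OID fathers, and according to the methods of the study they ate the control diet themselves, so that OID names the diet of the father in F1. Which father or litter an F1 male came from is not given in the labels, and sons that share a father would not be independent. Sperm was collected from the cauda epididymis, somatic cells were lysed with a detergent buffer, and RNA of 30 to 45 nucleotides was excised from a gel on which the barcoded samples had been pooled.

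tRNA fragments are made when a mature tRNA is cut, mostly in or near the anticodon loop. They are a main class of small RNA in mature sperm, and many are gained while sperm pass through the epididymis, in part from vesicles shed by its epithelium. Fragments from the front end of the tRNA with the GCC anticodon are among the most abundant of them, respond to paternal diet in mice, and are known to restrain genes linked to the retroelement MERVL in early embryos. By their anticodons, the 4 tRNAs pair with sets of glycine codons that overlap in part. GCC pairs with GGC and GGU, CCC with GGG, TCC with GGA and GGG, and an unmodified ACC with GGU. The deposited entries do not say which end of a tRNA a fragment came from.

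The glycine entries have 28 tRNA loci in NCBI RefSeq on GRCm38.p6, of 71 to 74 base pairs on 9 chromosomes. GlyGCC has 14 loci, GlyTCC 7, GlyCCC 6 and GlyACC 1, which lies at chr11:48823728-48823801. A stretch of 64.8 kb at chr1:171037997-171102827 holds 5 of the GlyTCC and 4 of the GlyGCC loci. Against GENCODE M21, 9 of the 28 loci lie within annotated genes and 2 overlap exons: the GlyCCC locus n-TGccc7 at chr17:25875088-25875158, in Mettl26, and the GlyTCC locus n-TGtcc1 at chr1:171064699-171064770, in Fcgr3. The loci of 1 entry were not counted apart.

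Values are normalised signals, reads divided by a size factor of the library plus 0.5, and the whole reads behind each value were recovered from them. The libraries held 17966 to 5363471 reads on tRFs. CO F0 replicate 3 (17966) and CO F1 replicate 2 (35677) were the only libraries under 100000, and no OID F1 library had fewer than 1684563. The spermatogenic miRNAs mir-34b, mir-34c and mir-449a were all listed, with 0 to 4 reads in sum and in 7 of the 15 libraries (none of the CO F0 and all 4 of the OID F1 libraries). The 5 miRNAs of other cell types (mir-143, mir-145, mir-126, mir-451 and mir-223) had 1 to 26 reads in sum, so that each of the 15 libraries held some of them. Singly, mir-143 was found in 14 libraries, mir-145 in 10, mir-451 in 8, mir-126 in 6 and mir-223 in 2. miRNAs are shorter than the excised RNA and had 71 to 1206 reads per library in all, so these markers were thinly measured, and their part in the results was not tested.

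**Figure D1:**
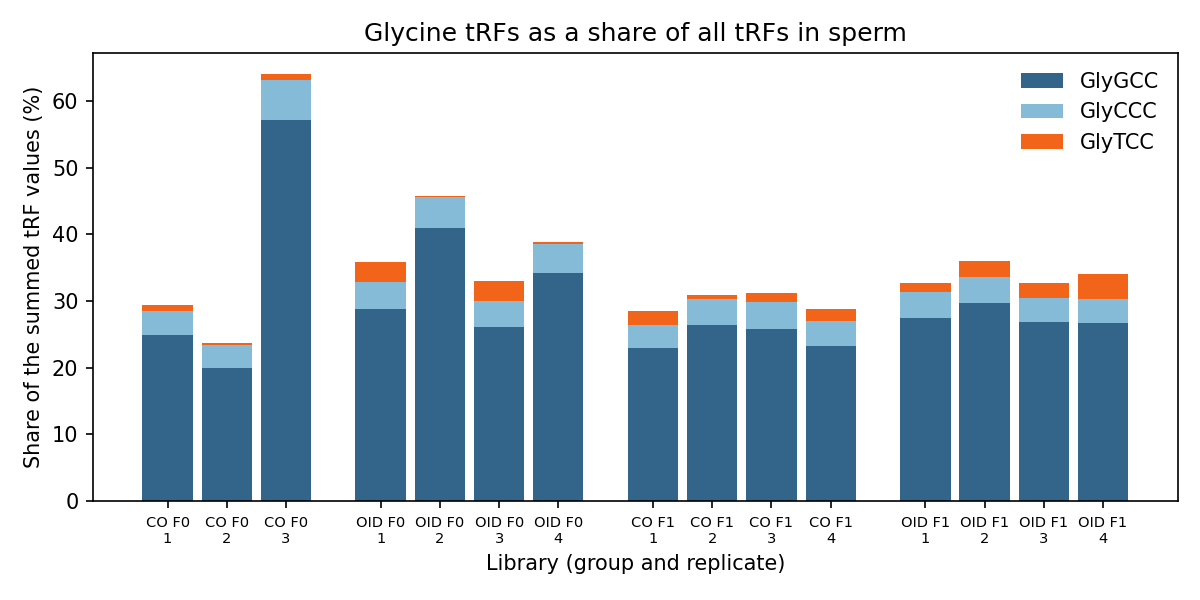
Share of the summed tRF values of a library (%, vertical axis) taken by GlyGCC, GlyCCC and GlyTCC, stacked, in each of the 15 libraries (horizontal axis, by group and replicate). GlyACC is too small to be drawn. GlyGCC is the tallest segment everywhere, from 19.99% to 57.2%, and the GlyTCC segment varies from barely visible to 3.65%.

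Glycine tRFs made up between 23.7% and 64.0% of the summed tRF values of a library, with a median of 32.7%. GlyGCC was the first of them in all 15 libraries, with 78.5% to 89.7% of the glycine reads, and ranked first or second among all 47 tRFs. GlyCCC took 9.29% to 14.2% of the glycine reads and GlyTCC 0.206% to 10.7%. GlyACC had 296 of 8699743 glycine reads over all libraries, 34.02 per 1000000 (95% exact Poisson interval 30.3 to 38.1, which covers counting error only). The order GlyGCC, GlyCCC, GlyTCC, GlyACC held in all 15 libraries. In OID F1 replicate 4 GlyCCC and GlyTCC were nearly level, with 180115 and 179671 reads.

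Divided by the number of its RefSeq loci, GlyGCC had 2.54 to 4.12 times the value of GlyCCC (median 3.08) and 3.66 to 218 times that of GlyTCC (median 9.90). GlyGCC thus stayed first per locus in all 15 libraries. This division treats all loci of an entry alike.

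GlyGCC had normalised values of 134683, 140313 and 495177 in CO F0 males and of 163033, 402717, 137096 and 386389 in OID F0 males. CO F0 replicate 3, the shallowest library, was the highest of all 15. In F1 the values were 158654, 176749, 161616 and 117002 in CO and 203356, 196784, 187303 and 174247 in OID males. The F0 groups overlapped, as they did for all 4 glycine tRFs, while 10.6% of the 47 tRFs had higher and 10.6% lower values in all OID than in all CO males of F0. In F1 only the lowest OID value lay below the highest CO value.

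As a share of the summed tRF values, GlyGCC was at 25.0%, 19.99% and 57.2% in CO F0 males and at 28.8%, 41.0%, 26.1% and 34.3% in OID F0 males. In F1 it was at 22.9%, 26.4%, 25.8% and 23.2% in CO and at 27.4%, 29.8%, 26.8% and 26.7% in OID males. The F1 males spanned a narrower range than the F0 males, and all 4 OID F1 males had a higher GlyGCC share than all 4 CO F1 males.

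GlyCCC had values of 18601, 23667 and 51455 in CO F0 males and of 22680, 45379, 20619 and 48706 in OID F0 males. In F1 they were 24435, 25934, 25557 and 19164 in CO and 29307, 25134, 24821 and 23852 in OID males. The libraries with the highest GlyGCC values, CO F0 replicate 3 and OID F0 replicates 2 and 4, were also those with the highest GlyCCC values. As a share of the tRF total GlyCCC was the steadiest of the 28 tRFs that had at least 10 reads in every library: the SD of its log2 share over the 15 libraries was 0.20, against 0.37 for GlyGCC, 1.48 for GlyTCC, the largest of the 28, and a median of 0.73.

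**Figure D2:**
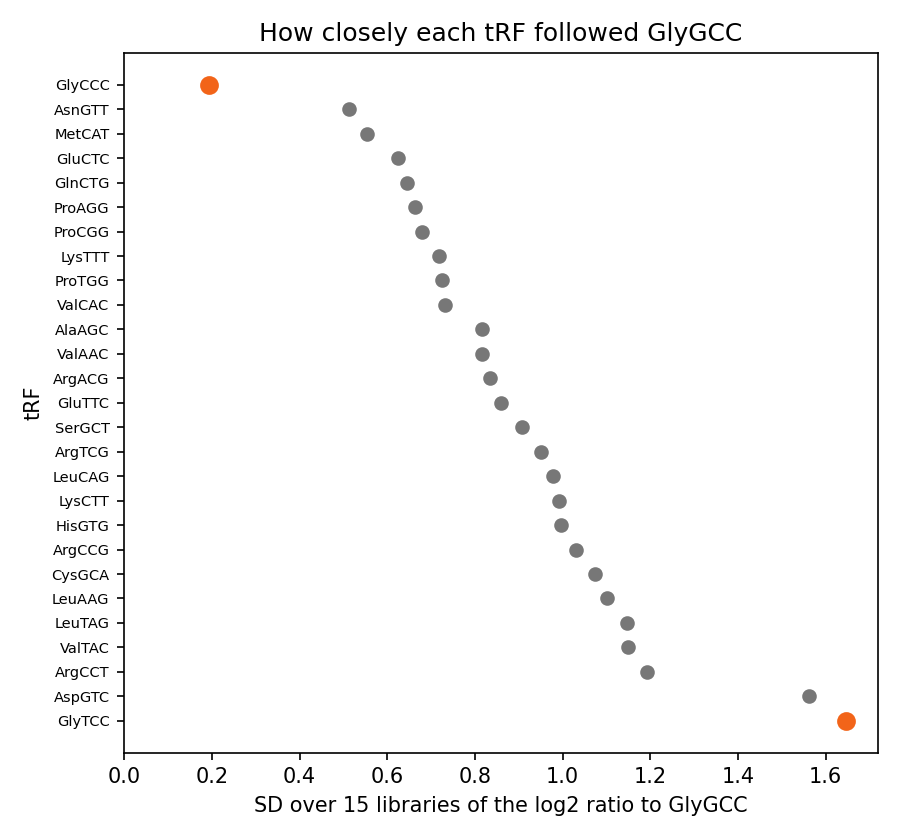
SD over the 15 libraries of the log2 ratio of each tRF to GlyGCC (horizontal axis, log2 units) for the 27 other tRFs that no library had under 10 reads of (vertical axis, ordered). Orange points are glycine tRFs: GlyCCC has the smallest SD, 0.19, and GlyTCC the largest, 1.65.

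GlyCCC was the tRF that followed GlyGCC most closely. The SD of the log2 ratio between them was 0.19 over the 15 libraries, against 0.51 for AsnGTT and 0.55 for MetCAT, the next of 27, and a median of 0.86. Among all 378 pairs of these 28 tRFs it was the fourth smallest, after ProAGG with ProCGG (0.06), LeuAAG with LeuTAG (0.10) and ValAAC with ValCAC (0.185). The tRFs most like GlyCCC were GlyGCC, AsnGTT (0.39) and MetCAT (0.42). GlyTCC stood at the other end: its ratio to GlyGCC ranked 371 and its ratio to GlyCCC 365 of the 378 pairs, and the tRFs most like it were LeuTAG (1.13), LeuAAG (1.16) and AspGTC (1.21). These likenesses are descriptions over libraries that differ in depth. Reads shared between tRNAs were assigned by alignment score, and how many were shared between isoacceptors is not given in the sources used here.

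GlyCCC per GlyGCC was nevertheless not fixed. The ratio was 0.138, 0.169 and 0.104 in CO F0 males and 0.139, 0.113, 0.150 and 0.126 in OID F0 males. In F1 it was 0.154, 0.147, 0.158 and 0.164 in CO males and 0.144, 0.128, 0.133 and 0.137 in OID males. All 4 OID F1 males lay below all 4 CO F1 males, while the F0 groups overlapped. The mean ratio of CO F1 males was 0.156 ± 0.00718 (SD, n = 4) and that of OID F1 males 0.135 ± 0.00696 (SD, n = 4). The F0 means were 0.137 ± 0.0324 (SD, n = 3) for CO and 0.132 ± 0.0163 (SD, n = 4) for OID.

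In F1 the ratio was 0.869 times as high in OID as in CO males, a log2 difference of -0.20 (two-sided exact permutation test, p = 0.0286, the smallest that 4 against 4 males allow). Adjusted over the 16 tests made of 4 such measures in 4 comparisons, p was 0.229 (exact permutation test, Benjamini-Hochberg). With groups this small, no adjusted p over these 16 tests could go under 0.05, so the adjusted p cannot decide whether the groups differed. Of the 46 tRFs other than GlyGCC, 6 (13.0%) had a ratio to GlyGCC that was lower in all OID F1 than in all CO F1 males, and none had a higher one. In F0 the same count was 0 lower and 2 of 46 (4.35%) higher, neither a glycine tRF, and for F1 against F0 in CO it was 1 of 46 (2.17%) higher, also not a glycine tRF. With GlyCCC given as a percent of the GlyCCC and GlyGCC reads, the 95% Wilson intervals of single libraries were 0.0967 to 1.26 percentage points wide. The interval of the OID library lay below that of the CO library in 15 and above it in 0 of 16 pairs of libraries in F1, and in 6 and 5 of 12 pairs in F0. Such intervals cover counting error within a library and do not compare groups.

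In F0 the log2 difference in this ratio was -0.03 (two-sided exact permutation test, p = 0.914, adjusted over the 16 tests 1). From F0 to F1 it was 0.21 in the CO and 0.04 in the OID lineage (exact permutation tests, p = 0.400 and p = 0.743, adjusted 0.762 and 0.990). The difference of the diet effects between F1 and F0 was -0.17 on the log2 scale (exact permutation of diet within generations, p = 0.425, adjusted over the 4 measures 0.900), so the F1 and F0 effects were not shown to differ.

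**Figure D3:**
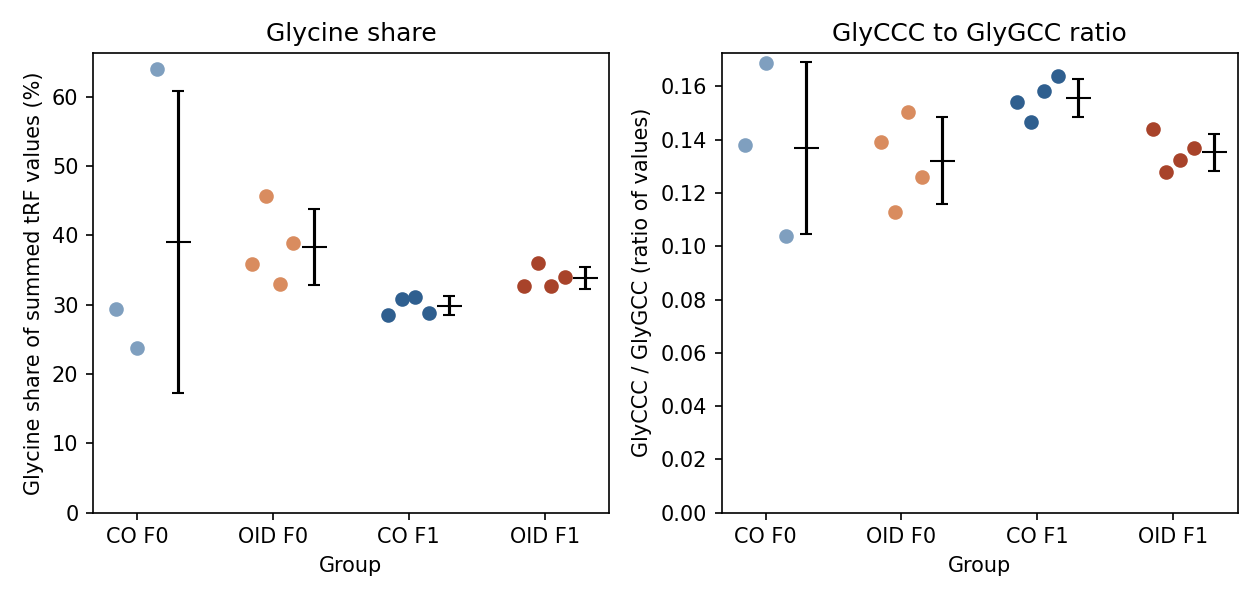
Glycine share of the summed tRF values (left, %) and ratio of the GlyCCC to the GlyGCC value (right) in each male (points, in replicate order) by group, with the mean and SD beside them (black). In F1 the OID points lie above the CO points on the left and below them on the right, and in F0 the points of the groups overlap on both sides.

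The glycine share of the summed tRF values was 29.4%, 23.7% and 64.0% in CO F0 males and 35.9%, 45.7%, 33.0% and 38.9% in OID F0 males. It was 28.6%, 30.9%, 31.2% and 28.8% in CO F1 and 32.6%, 36.0%, 32.7% and 34.03% in OID F1 males. The F1 groups did not overlap, and CO F0 replicate 3 stood apart from its group. Its mean in CO F1 males was 29.9% ± 1.35 (SD, n = 4) and its mean in OID F1 males 33.9% ± 1.60 (SD, n = 4). OID F1 males were thus 3.998 percentage points higher (exact permutation, two-sided p = 0.0286). The p adjusted over the 16 permutation tests was 0.229, and no adjusted p over these tests could go under 0.05. With GluCTC left out of the tRF total OID F1 males were 8.86 points higher. These are points of a smaller total, so their size cannot be set against the 3.998 points. Of the 3 larger glycine tRFs GlyGCC alone had shares that did not overlap in F1, where 2 of 47 tRFs (4.26%), GlyGCC and GlyACC, were higher in all OID males. Lower shares in all OID F1 males were found for 8.51% of the 47 tRFs, as were lower values, none of them glycine tRFs. In F0, 8.51% of the tRFs had higher and 4.26% lower shares in all OID males, again without a glycine tRF.

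In F0 the mean glycine share of the CO males was 39.0% ± 21.8 (SD, n = 3) and that of the OID males 38.4% ± 5.47 (SD, n = 4), by exact permutation p = 0.971 (adjusted 1). This comparison turned on CO F0 replicate 3, with which the difference was -0.678 points. Without it OID males were 11.8 percentage points higher (exact permutation test, p = 0.133, the smallest that 2 against 4 males allow). From F0 to F1 the share differed by -9.19 points in CO males (exact permutation test, p = 0.743, adjusted 0.990), but by 2.95 points over the libraries with at least 100000 tRF reads. In the OID lineage it differed by -4.52 points (exact permutation test, p = 0.143, adjusted 0.457), by -2.06 points without OID F0 replicate 2, and by -0.240 points when GluCTC was left out of the tRF total. The diet effects of the generations differed by 4.68 points (exact permutation test, p = 0.731, adjusted over the 4 measures 0.900).

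GluCTC, a glutamate tRF, is the other abundant tRF of these libraries. GlyGCC per GluCTC was 0.571, 0.347 and 2.31 in CO F0 males and 0.709, 1.14, 0.607 and 0.827 in OID F0 males. In F1 it was 0.518, 0.549, 0.582 and 0.509 in CO and 0.573, 0.679, 0.527 and 0.596 in OID males. GlyGCC exceeded GluCTC in CO F0 replicate 3 and OID F0 replicate 2 only. Between CO and OID, two-sided exact permutation tests of this ratio gave p = 0.914 in F0 and p = 0.171 in F1 (adjusted over the 16 tests 1 and 0.457). In the OID lineage F1 males had 0.741 times the F0 ratio (exact permutation test, p = 0.0571, adjusted 0.305).

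GlyTCC was the most variable of the 3 larger glycine tRFs. Its values were 5253, 2622 and 7227 in CO F0 males and 17048, 924, 15654 and 3441 in OID F0 males. They were 14607, 3866, 8162 and 9041 in CO F1 and 9284, 16237, 15992 and 23793 in OID F1 males. The highest of the 15 was 25.7 times the lowest, against 4.23 times for GlyGCC and 2.77 times for GlyCCC. The OID F0 males fell into a high pair (replicates 1 and 3) and a low pair (replicates 2 and 4), with 18.4 times between their extremes, and the groups overlapped in all 4 comparisons.

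GlyTCC per GlyGCC was 0.0390, 0.0187 and 0.0146 in CO F0 males and 0.105, 0.00230, 0.114 and 0.00891 in OID F0 males. It was 0.0921, 0.0219, 0.0505 and 0.0773 in CO F1 and 0.0457, 0.0825, 0.0854 and 0.137 in OID F1 males. Between OID and CO, p was 1 in F0 and 0.429 in F1 (two-sided exact permutation tests). From F0 to F1, p was 0.114 in CO and 0.371 in OID (two-sided exact permutation tests). Adjusted over the 16 tests, the p-values of these 4 comparisons were 0.457 to 1.

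**Figure D4:**
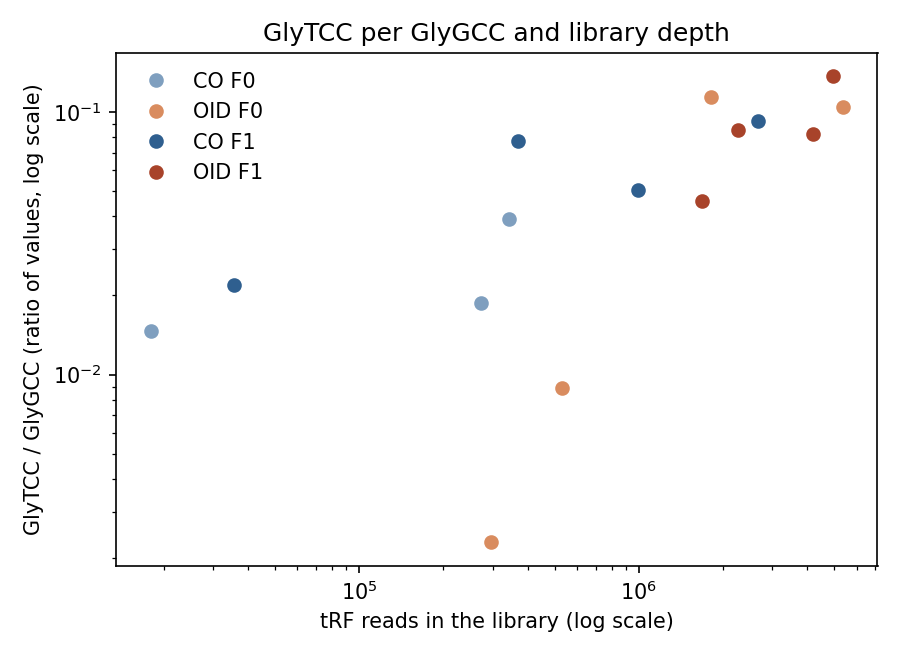
Ratio of the GlyTCC to the GlyGCC value (vertical axis, log scale) against the tRF reads of the library (horizontal axis, log scale) in the 15 libraries, coloured by group. The libraries with over 1000000 tRF reads lie at ratios of 0.0457 to 0.137, and those with fewer reach down to 0.00230.

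GlyTCC per GlyGCC moved with the depth of the library. On log2 scales Pearson's r was 0.641 and Spearman's rho 0.836 over the 15 libraries (permutation tests, p = 0.0105 and p = 0.00021, adjusted over the 4 measures set against depth 0.0420 and 0.00084). Without the 2 libraries farthest from the median depth, the 2 shallowest, r was 0.713, and for deviations from the group means it was 0.699. The deviations of the other measures gave an r of -0.589 for the glycine share, 0.602 for GlyCCC per GlyGCC and -0.557 for GlyGCC per GluCTC, sizes not far below that of GlyTCC. For these measures the other checks gave values smaller in size than for GlyTCC. Without regard to group, their r was -0.442, 0.275 and -0.437 over all 15 libraries. It was 0.0898, -0.100 and 0.0267 without the same 2 libraries. Over all 15 libraries their rho was 0.0964, 0.0143 and 0.0464. The GlyTCC shares of the OID F0 males and of the OID F1 males each ranked in the order of their depth, but those of the CO males did not: CO F1 replicate 4 (368510 reads) was at 1.80% and the deeper replicate 3 (992973 reads) at 1.30%, and CO F0 replicate 3 (17966 reads) was at 0.835% and the deeper replicate 2 (271812 reads) at 0.373%. Among the same 28 tRFs the share of GlyTCC had the highest rho with depth (0.85, median of the 28 0.11), with 0.01 for GlyGCC and -0.21 for GlyCCC. Without regard to group, none of the other 3 measures passed (adjusted permutation p of 0.138 to 0.321 for r over all 15 libraries). Depth and group cannot be told apart in full. All 4 OID F1 libraries are deep, and in F0 the CO libraries had 17966 to 341927 and the OID libraries 295389 to 5363471 tRF reads.

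GlyACC was at the edge of detection. It had 4, 1 and 1 reads in CO F0 libraries, 110, 3, 23 and 7 in OID F0, 19, 0, 8 and 2 in CO F1, and 19, 35, 19 and 45 in OID F1 libraries. In 5 of the 15 libraries it was at or under 3 reads, so no fold change is given. Pooled over the libraries of a group it had 33.98 reads per 1000000 glycine reads in CO F0 (95% exact Poisson interval 12.5 to 74.0), 49.99 in OID F0 (42.1 to 58.9), 24.4 in CO F1 (16.3 to 34.98) and 26.4 in OID F1 (21.8 to 31.6). These intervals cover counting error only, and most of the OID F0 reads (110) came from replicate 1. The normalised values of GlyACC were higher in all OID F1 than in all CO F1 males, as for 2 of 47 tRFs (4.26%), at 6.03 to 8.86 against 0.500 to 5.55, of which 0.5 is the offset.

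**Figure D5:**
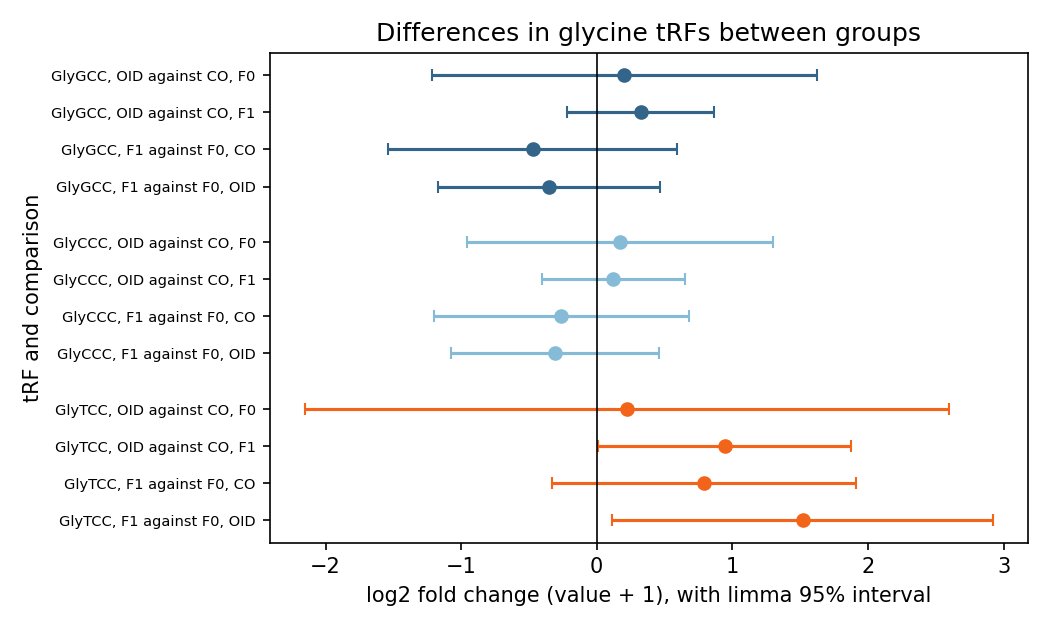
log2 fold change of the normalised value + 1 with the limma 95% interval (horizontal axis) for GlyGCC, GlyCCC and GlyTCC in 4 comparisons between groups (vertical axis). The GlyTCC intervals of OID against CO in F1 and of F1 against F0 in the OID lineage lie above 0 without adjustment, and the other 10 span it.

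Across all 47 tRFs, limma (moderated test on log2 of the value + 1, Benjamini-Hochberg adjustment) called no tRF in any of the 4 comparisons or in their interaction at an adjusted p under 0.05 (0.0% of 47). Unadjusted p-values under 0.05 numbered 10 (21.3%) for OID against CO in F0, 8 (17.0%) in F1, 1 (2.13%) for F1 against F0 in CO, 8 (17.0%) in OID, and 2 (4.26%) for the interaction. The number of glycine tRFs among them was 0, 1, 0, 1 and 0, each time GlyTCC, which was higher in OID F1 males. Higher values made up 12.8%, 6.38%, 0.0%, 6.38% and 0.0% of the 47 at that threshold. With the replicate number as a block, 1 tRF was called for F1 against F0 in CO, SeCTCA, a selenocysteine tRF with 3 reads or fewer per library.

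GlyGCC differed between OID and CO by 0.20 (SE 0.61, adjusted p = 0.878) on the log2 scale in F0 and by 0.33 (SE 0.25, adjusted p = 0.434) in F1, by limma. GlyCCC differed by 0.17 (SE 0.49, adjusted p = 0.878) in F0 and by 0.12 (SE 0.24, adjusted p = 0.694) in F1. With log2 depth as a covariate the F0 differences were larger, 1.55 for GlyGCC (limma, unadjusted p = 0.00808, adjusted p = 0.113) and 1.18 for GlyCCC (limma, unadjusted p = 0.0205, adjusted p = 0.127), and over the libraries with at least 100000 tRF reads they were 0.82 and 0.60. The depths of the F0 groups overlapped little, so the covariate cannot fully tell depth from diet there. The 95% intervals for GlyGCC without the covariate ran from -1.22 to 1.63 in F0 and from -0.22 to 0.87 in F1, both of which span 0. GlyTCC differed by 0.22 (SE 1.02, adjusted p = 0.895) in F0 and by 0.95 (SE 0.42, adjusted p = 0.272) in F1. The F1 difference in GlyTCC was 0.08 with log2 depth as a covariate (limma, adjusted p = 0.845) and 0.59 without CO F1 replicate 2, the shallow library.

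From F0 to F1, GlyGCC differed by -0.47 (SE 0.49, adjusted p = 0.840) in CO and by -0.35 (SE 0.39, adjusted p = 0.544) in OID males, by limma. GlyCCC differed by -0.26 (SE 0.43, adjusted p = 0.895) and -0.31 (SE 0.37, adjusted p = 0.545). GlyTCC differed by 0.79 (SE 0.52, adjusted p = 0.840) in CO and by 1.52 (SE 0.67, adjusted p = 0.249) in OID males, and the latter was 0.16 with log2 depth as a covariate (limma, adjusted p = 0.992) and 0.67 without OID F0 replicate 2. Over the deeper libraries the CO difference was 1.47 (limma, unadjusted p = 0.00878, adjusted p = 0.184). The comparisons of diet and of generation share groups and are not independent. The interaction of diet and generation gave adjusted p-values of 0.988 for all 4 glycine tRFs in the limma fit over all groups.

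The 6 tRFs of other tRNAs known to be abundant in cauda sperm (GluCTC, GluTTC, LysCTT, HisGTG, ValCAC and ValAAC) had no call in these fits either. Their median log2 difference between OID and CO was 0.52 in F0 and 0.19 in F1, against 0.20 and 0.33 for GlyGCC, GlyCCC and GlyTCC and 0.02 and 0.08 for all 47. In other settings ValAAC and ValCAC had calls. Both were called for OID against CO in F0 when all groups were fitted together. Without OID F0 replicate 3, ValAAC was called for OID against CO in F0, and both were called for F1 against F0 in OID.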

How the data were processed

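Small RNA-seq of caudal sperm from 15 male mice in 4 groups was analysed. Groups and replicate numbers were taken from the sample labels. The members and lists were chosen with earlier results of these data known.

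The authors aligned reads to GRCm38/mm10 (the submitters' processing notes name Bowtie2 2.3.4.1 and DESeq2), assigned them to tRNAs, sharing multiply matching reads by alignment score, and deposited a normalised signal for 47 tRFs, 4 mature tRNA entries and 164 miRNAs. The study calls this TPM, although the entries of 1 library add up to over 1000000. After subtraction of 0.5 all 705 tRF values (100%) were whole multiples, within 0.001 reads, of 1 step per library, which gave the reads. The search recovered 100 of 100 simulated libraries. The step of the miRNA and mature tRNA entries was 0.225 to 5.10 times that of the tRFs, so values were compared among tRFs only. Depth was 17966 to 5363471 tRF reads, and intervals cover counting error only, since reads had no molecular identifiers.

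limma 3.58.1 (R 4.3.3; lmFit, eBayes without a trend) was run on log2(value + 1) over the 2 groups compared and, for the interaction, over all 4, with p-values adjusted by Benjamini-Hochberg for all 47 tRFs (threshold 0.05). Fold changes of low tRFs are understated on this scale. When 10 of 47 tRFs were changed by 2 (log2) in 50 simulations, it recovered 73.2% in the F0 and 92.8% in the F1 design. Smaller changes were not simulated. Shares and ratios, which do not depend on the size factor, were compared by two-sided exact permutation tests (scipy 1.17.1), for which 3 against 4 males cannot go below p = 0.0571. Correlations with depth used 100000 resamples. They and the tests of the difference between generations were added after the data were seen. p-values measure only the spread between these samples.

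Same-numbered CO males of F0 and F1 deviated together from their group means (correlations of 0.530, 0.196 and 0.251), so the blocked count is printed for that comparison. Of the other 3 comparisons none had all correlations above 0.1. Glycine tRFs and GluCTC were always named, and the most similar tRFs were the 3 with the smallest SD of the log2 ratio among those with at least 10 reads in every library. Loci are from NCBI RefSeq on GRCm38.p6 and were set against GENCODE M21. Figures were drawn with matplotlib 3.10.9. The alternatives are listed in the closing section. No sequences of tRNAs were used here.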

Additional observations from a re-analysis of the deposited data

How the results depend on the processing

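The settings were other pseudocounts (0.1, 10), a filter at a mean value of 100, a joint fit of the 4 groups, 2 other scalings, an intensity trend, the replicate block, a log2 depth covariate, only the deeper libraries (at least 100000 tRF reads), a tRF total without GluCTC and each male left out, with limma-voom on the recovered reads and subtraction of the offset added after the data were seen. Negative binomial count models were not run, since the values are not counts. The number of tRFs called rose from 0 to 6 for OID against CO in F0 in the joint fit, and from 0 to 1 for F1 against F0 in CO with the replicate block, and voom called 0 in all comparisons. No glycine tRF was called under any setting. GlyGCC came near the threshold for OID against CO in F1 with voom. Its log2 difference there was 0.24 and its adjusted p 0.0506 (limma-voom), the lowest of that fit. Leaving out 1 male gave 0 to 2 calls in F0 (2 without OID replicate 3, 1 without CO replicate 1), 0 to 1 in F1 (1 without CO replicate 1) and 0 to 2 for F1 against F0 in OID (2 without OID F0 replicate 3). For OID against CO in F0, the log2 differences turned negative for GlyCCC, GlyGCC and GlyTCC when libraries were rescaled without GlyGCC and GluCTC (-0.18, -0.14 and -0.13), for GlyCCC and GlyGCC with the replicate block (-0.0314 and -0.0187), and for GlyTCC with the depth covariate (-0.97), and they ranged with 1 male left out from -0.13 to 0.60 for GlyCCC, -0.12 to 0.82 for GlyGCC and -0.33 to 1.07 for GlyTCC. For F1 against F0 they turned positive for GlyCCC and GlyGCC in CO over the deeper libraries (0.12 and 0.0692; -0.56 to 0.17 and -0.80 to 0.14 with 1 male left out) and in OID with the depth covariate (0.0917 and 0.13). In F1, OID against CO, the glycine share differed by 3.51 points as medians, 3.998 with the replicate block, 4.33 over the deeper libraries and 3.27 to 4.44 with 1 male left out, and log2 of GlyCCC per GlyGCC by -0.21, -0.20, -0.23 and -0.23 to -0.18. Their exact permutation p was 0.0571 or more, and 3 against 4 males and the block cannot go below 0.0571 and 0.125, so these p-values say nothing about stability. In F0 the glycine share differed by 7.96 points as medians, 11.8 over the deeper libraries and -8.33 to 11.8 with 1 male left out, and for F1 against F0 in CO by 0.433, 2.95 and -16.8 to 3.28. Over the deeper libraries GlyTCC per GlyGCC in F0 (-0.28) and GlyGCC per GluCTC for F1 against F0 in CO (0.27) also reversed. With 1 male left out the log2 differences in F0 ranged from -0.22 to 0.13 for GlyCCC per GlyGCC, -0.77 to 1.11 for GlyTCC per GlyGCC and -0.52 to 0.84 for GlyGCC per GluCTC, those for F1 against F0 from -1.09 to 0.28 for GlyGCC per GluCTC in CO and from -0.0315 to 0.11 for GlyCCC per GlyGCC in OID. Other log2 differences kept their sign with 1 male left out: in F1, 0.20 to 0.40 for GlyGCC, 0.0225 to 0.17 for GlyCCC, 0.59 to 1.23 for GlyTCC and 0.20 to 0.90 for GlyTCC per GlyGCC, and for F1 against F0, 0.38 to 1.15 for GlyTCC in CO, 0.67 to 2.07 in OID, 0.97 to 1.69 and 0.78 to 2.66 for GlyTCC per GlyGCC in CO and OID, and -0.63 to -0.11 and -0.52 to -0.11 for GlyGCC and GlyCCC in OID. With GluCTC left out of the total the glycine share differed by -0.458 points in F0, 8.86 in F1, -9.56 for F1 against F0 in CO and -0.240 in OID. The causes were not tested. The replicate block changed no other call.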
